A study of Mus musculus with 4 samples.

Results

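The chemokines and their receptors form a family of 60 genes in the deposited tables, taken by gene symbol (Ccl, Cxcl, Cx3cl and Xcl ligands, Ccr, Cxcr and Cx3cr receptors, and Ackr atypical receptors) out of 24319 gene names. They comprise 39 ligands, 17 signalling receptors and 4 atypical receptors, and the symbol rule uses no measured value. The series compares prostate tumours of TRAMP mice with normal mouse prostate by RNA-seq, with 2 libraries in each group. The tumours were late-stage tumours of 24 weeks from heterozygous males in which the rat probasin promoter, active in prostate epithelium, drives the SV40 large T antigen. The normal prostates came from wild-type males of 22 weeks, and both groups were F1 animals of C57BL/6 and FVB parents. Whether each tumour is from its own mouse is not in the labels, so a p-value describes the spread between these samples, which may be technical.

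Chemokines are small secreted proteins that bind heparan sulfate on cells and matrix and steer leukocytes along a gradient. Their receptors are seven-helix proteins coupled to Gi proteins, and the atypical receptors bind chemokines without such signalling and so clear or carry them. Inflammatory ligands are induced at sites of injury and recruit monocytes, neutrophils and T cells, while homeostatic ligands position cells in resting tissue. Several inflammatory CC ligands of the mouse, among them Ccl6, Ccl9 and Ccl12, have no clear human counterpart. In prostate, stromal Cxcl12 and its receptor Cxcr4 are known for a role in tumour cell migration to bone.

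All levels below are FPKM, fragments normalised to transcript length and to the mapped total, after division of each library by the factor of its median gene. FPKM are scaled by length, so levels of different genes may be set side by side. The libraries held 1431957 and 1141314 fragments in the tumours and 985509 and 1578847 in the normal prostates, as implied by the width of the deposited intervals. Chemokine and receptor genes received a small part of these, 369 and 1466 implied fragments in the tumours and 184 and 321 in the normal prostates. Most members therefore rest on few fragments, and the implied number is given for some of them. The groups stood far apart: Tgm4, the prostate transglutaminase, lay at 0.966 and 0.379 in the tumours and at 1780.0 and 1621 in the normal prostates, and Chga, the neuroendocrine granule protein, lay at 133 and 396 in the tumours and was listed at 0 in both normal prostates. The tumours also differed from each other, with the luminal keratin Krt8 at 0.258 in tumour 1 and 438 in tumour 2, against 178 and 191 in the normal prostates.

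Members listed above 0 numbered 29 and 39 in the tumours and 21 and 29 in the normal prostates, and 12 members were listed at 0 in all 4 libraries. The 12 were Ccl1, Ccl17, Ccl20, Ccl22, Ccl26, Ccr3, Ccr6, Ccr8, Cxcl2, Cxcl11, Cxcr1 and Cxcr3. Summed ligand levels were 133 and 657 in the tumours and 100.2 and 122 in the normal prostates. Signalling receptors were far lower, at sums of 13.6 and 15.5 in the tumours and 4.45 and 4.70 in the normal prostates. In every library 3 genes held over 50% of the summed level of all members. The 3 highest were Ccl27a, Ccl6 and Ccl8 in tumour 1 (55.0%) and Ccl6, Ccl8 and Ccl9 in tumour 2 (61.8%), against Cxcl17, Ackr3 and Cx3cl1 in normal 1 (50.4%) and Cxcl17, Ackr3 and Ccl27a in normal 2 (51.4%).

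**Figure D1:**
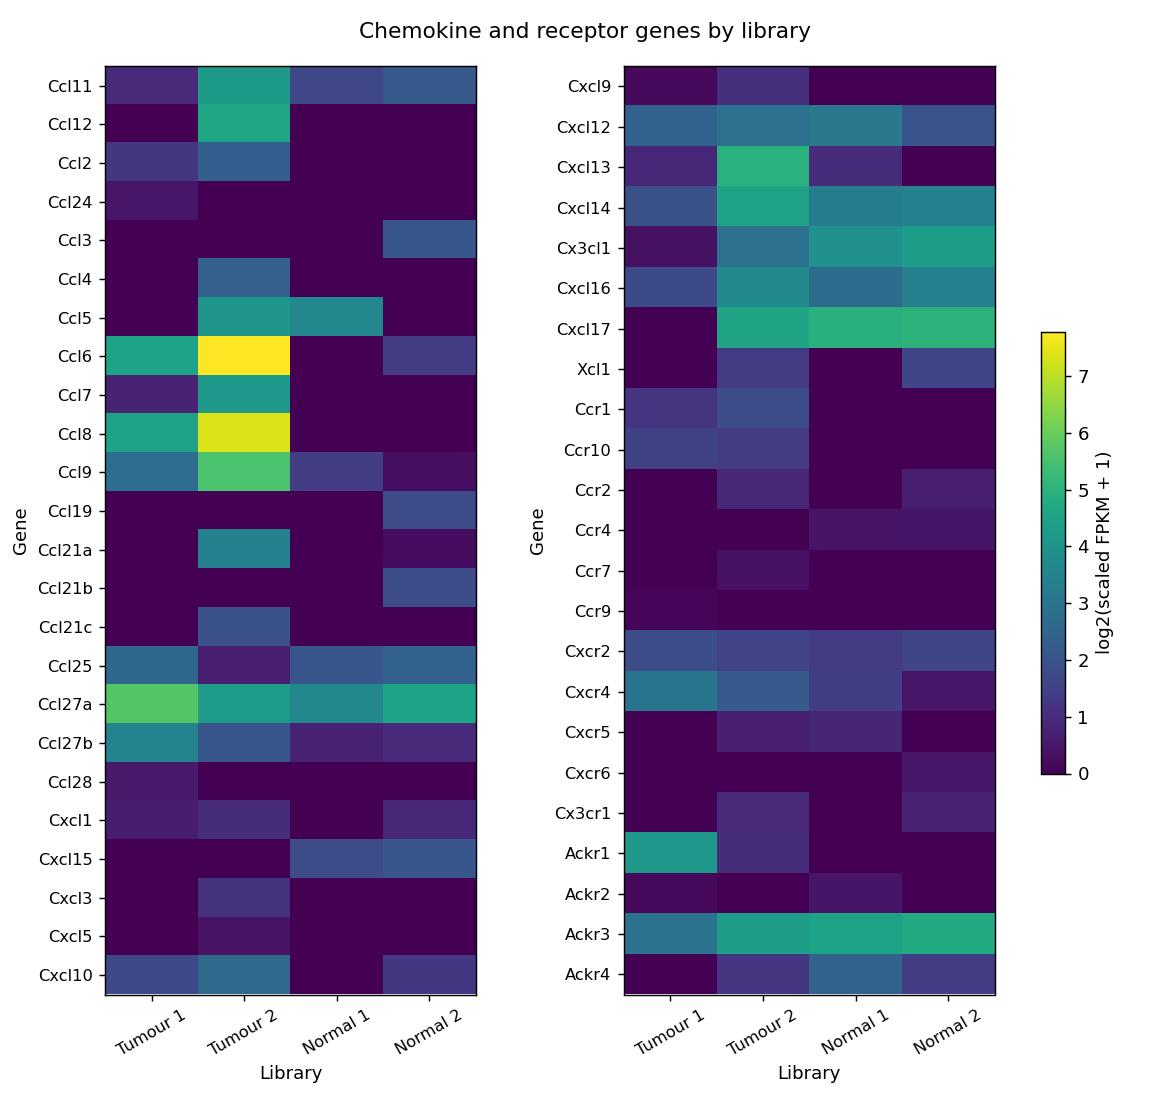
Level of the members shown, each listed above 0 in at least 1 library (rows, ordered by role), in the 2 tumours and 2 normal prostates (columns); the colour is log2(scaled FPKM + 1). The brightest cells are Ccl6 (220.0) and Ccl8 (163) in tumour 2, and Cxcl17, Cx3cl1 and Ackr3 are brighter in the normal prostates than in tumour 1.

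Of the 60 members, 25 had 1 FPKM or more as deposited in 2 or more libraries, and these were tested within the fit over all 13162 genes that met the same limit (limma, Benjamini-Hochberg adjustment, threshold 0.05). Ccl6, Ccl8 and Ccr10 rose in the tumours, Cxcl15 fell, and 21 members did not pass. The 3 that rose are 12% of the members tested, where 9.85% of all genes tested rose, and the 1 that fell is 4%, where 8.27% of all genes fell. In either direction 18.1% of all genes passed. These shares lie near the background and single out no direction for the family. At an unadjusted p under 0.05, 8 members were higher and 2 lower, where 21.5% of all genes were higher and 18.3% lower. The groups did not overlap in 10 members higher in the tumours (40%, against 37.7% of all genes tested) and 5 lower (20%, against 33.3%), and 71.1% of all genes did not overlap in either direction. The median log2 fold change was 0.67 over the 25 members and 0.07 over all genes tested. Of the 25, 8 reached the limit in tumours alone and 1 in normal prostates alone, and such members had to differ in FPKM as deposited. Neither the counts nor the median therefore support a shift of the family. After scaling, Cxcl13, among the 8, overlapped between the groups. Ccl8 and Ccr10 were among the 8, and Cxcl15 was the 1. The other 35 members were not tested.

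The scaling set the balance of calls. Of all genes tested, 28.0% were higher and 3.24% lower with FPKM as deposited, when 7 members were higher and 1 lower. With each library divided by its FPKM total, leaving out genes above 1% of it, 19.3% were higher and 4.21% lower, with 4 members higher and 1 lower. Quantile normalization gave 6.72% higher and 5.98% lower, with 1 member each way, and voom on implied fragments 7.78% and 7.35%, with 0 members higher and 1 lower. With no filter 1.44% were higher and 1.46% lower, with 0 members called, and with a filter on mean FPKM 7.34% and 6.58%, with 2 members higher and 0 lower. Without tumour 1, 11.6% were higher and 20% lower, with 4 members higher and 1 lower, and without tumour 2, 19.7% and 30.8%, with 4 higher and 7 lower. Without either normal library limma called 0.0% of genes.

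**Figure D2:**
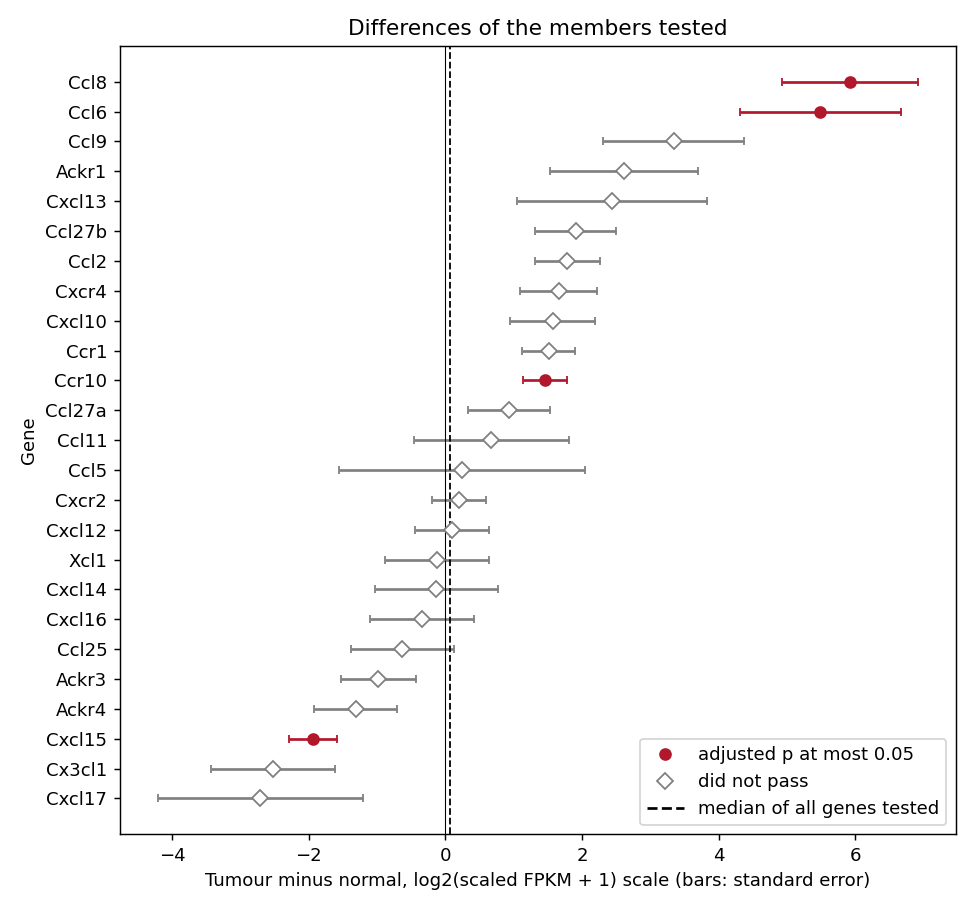
Tumour minus normal difference on the log2(scaled FPKM + 1) scale for the 25 members tested, ordered by size, with bars of 1 standard error (2 libraries per group). Filled circles mark the 4 members with an adjusted p of at most 0.05, open diamonds the 21 that did not pass, and the dashed line is the median of all genes tested (0.07).

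Among the 16 inflammatory CC ligands, 6 were tested, of which 2 rose and 4 did not pass, beside 9.85% of all genes tested that rose. Ccl8, among those that rose, met the limit for testing in tumours alone, so the count is no support for a shift. Ccl6 (chromosome 11, 83587886 to 83593087, protein coding), a myeloid chemokine that acts on the receptor Ccr1, was at 22.1 and 220.0 in the tumours, against a value listed at 0 and 1.53 in the normal prostates. Both tumours exceeded both normal prostates, and the fragments implied were 63.5 and 543 in the tumours, against 0 and 3.0 in the normal prostates. On the log2 scale the difference was 5.49 (SE 1.18, adjusted p = 0.0421), a value that depends on the pseudocount of 1 because the normal level is near 0. The call was lost in 6 of 12 alternatives. The adjusted p was 0.0540 under quantile normalization, 0.0641 with a pseudocount of 0.1, 0.0783 with no filter and 0.143 by voom. It was 0.183 without normal 1 and 0.160 without normal 2, where limma called 0 of all genes tested in either direction.

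Ccl8 (chromosome 11, 82115185 to 82116799, protein coding), the monocyte chemoattractant MCP-2, which acts on Ccr8 in the mouse, was at 21.4 and 163 in the tumours and listed at 0 in both normal prostates. The tumour values rested on 16.0 and 103 implied fragments. Ccl8 passed the test (adjusted p = 0.0285), with a difference of 5.92 (SE 0.99) between the group means of log2(scaled FPKM + 1). Because both normal libraries are listed at 0, that difference is set by the pseudocount and gives no fold. The adjusted p was 0.0586 with no filter, 0.0792 by voom, 0.144 without normal 1 and 0.147 without normal 2. Ccl9 (chromosome 11, 83572917 to 83578636), another Ccr1 ligand of macrophages and dendritic cells, was at 6.03 and 46.8 in the tumours and at 1.66 and 0.225 in the normal prostates. The groups did not overlap, but the log2 fold change of 3.34 (SE 1.03) had an adjusted p of 0.0814. It passed only without tumour 1 or without tumour 2, fits in which the single tumour left takes its spread from the normal pair.

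Ccl6, Ccl8 and Ccl9 belong to a cluster of 11 members on chromosome 11 (82035577 to 83664683, mm10) that runs in the order Ccl2, Ccl7, Ccl11, Ccl12, Ccl8, Ccl1, Ccl5, Ccl9, Ccl6, Ccl3 and Ccl4. Summed over the cluster, the level was 52.5 and 512 in the tumours and 15.1 and 8.59 in the normal prostates, and the fragments behind it were 125 and 999 in the tumours, against 11 and 12 in the normal prostates. Within the cluster 9 of 11 members were higher in tumour 2 than in tumour 1, and the others, Ccl1 and Ccl3, were listed at 0 in both tumours. No share over all genes was taken for this count. Tumour 2 exceeded tumour 1 by 9.96-fold for Ccl6, 7.61-fold for Ccl8 and 7.76-fold for Ccl9.

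The monocyte chemoattractants beside Ccl8 were lower. Ccl2 (MCP-1), the main ligand of Ccr2, was at 1.37 and 4.02 in the tumours and listed at 0 in both normal prostates, on 2.0 and 5.0 implied fragments in the tumours (adjusted p = 0.0618). Ccl7 (MCP-3) was at 0.692 and 17.1 in the tumours and listed at 0 in both normal prostates, too few libraries to be tested. Ccl12 (MCP-5) was listed at 0 in 3 libraries and lay at 23.3 in tumour 2, on 16.0 implied fragments. Ccl2, Ccl7 and Ccl12 were thus highest in tumour 2, as Ccl6, Ccl8 and Ccl9 were.

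Ccl11 and Ccl5, also members of the cluster, overlapped between the groups. Ccl11 (eotaxin), the eosinophil attractant, was at 0.948 and 17.9 in the tumours and at 2.14 and 3.62 in the normal prostates (log2 fold change 0.67, SE 1.14, adjusted p = 0.687). It turned to -0.92 without tumour 2 and was 2.35 without tumour 1. Ccl5 (RANTES), a T cell attractant, was listed at 0 in tumour 1 and at 16.2 in tumour 2, and at 11.3 in normal 1 and 0 in normal 2 (adjusted p = 0.930), so 1 library of each group carried its value. Ccl4 was at 4.24 in tumour 2 alone and Ccl3 at 3.21 in normal 2 alone, on 4.0 and 3.0 implied fragments.

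**Figure D3:**
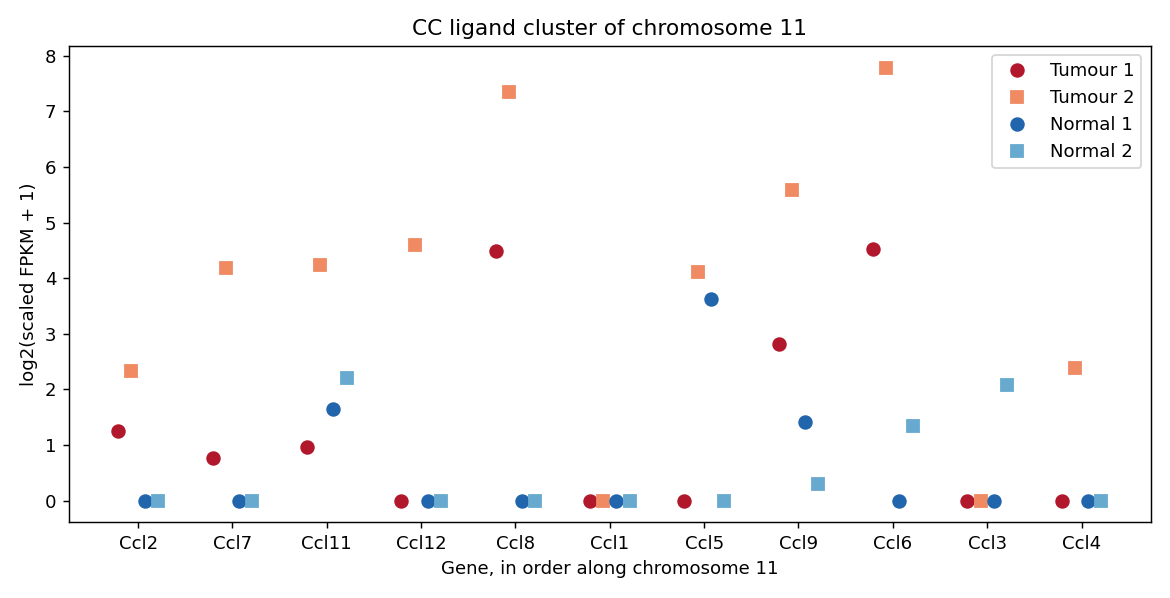
Level of the 11 CC ligands of the chromosome 11 cluster on a log2(scaled FPKM + 1) axis, in gene order, with 1 point per library. Tumour 2 is the highest library for 9 of the 11 genes, and both tumours lie above both normal prostates for Ccl2, Ccl7, Ccl8, Ccl9 and Ccl6.

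Promoters are shown for 4 genes of this cluster, including the pair that passed the test, and for Cxcl15, the member that fell, to set them beside each other. Each is the RefSeq sequence of 250 bases before to 50 after the start (GRCm38.p6), read 5′ to 3′ on the gene's strand. Capitals mark matches on either strand to TATAAA, the TATA box, or to GAGGAA, the core of sites bound by the myeloid factor PU.1.
Ccl6 (chr11:83593038-83593337, minus strand): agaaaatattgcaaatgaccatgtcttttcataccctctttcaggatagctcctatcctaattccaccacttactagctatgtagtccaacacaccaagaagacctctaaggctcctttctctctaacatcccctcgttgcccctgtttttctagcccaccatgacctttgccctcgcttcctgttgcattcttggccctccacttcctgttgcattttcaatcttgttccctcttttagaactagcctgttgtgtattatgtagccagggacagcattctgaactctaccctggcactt
Ccl8 (chr11:82114935-82115234, plus strand): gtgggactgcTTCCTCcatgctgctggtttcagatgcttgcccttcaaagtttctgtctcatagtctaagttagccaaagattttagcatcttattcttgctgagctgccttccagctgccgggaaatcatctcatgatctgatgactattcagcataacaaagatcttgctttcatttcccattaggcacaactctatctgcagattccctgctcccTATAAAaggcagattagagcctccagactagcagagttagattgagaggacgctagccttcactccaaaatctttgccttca
Ccl9 (chr11:83578587-83578886, minus strand): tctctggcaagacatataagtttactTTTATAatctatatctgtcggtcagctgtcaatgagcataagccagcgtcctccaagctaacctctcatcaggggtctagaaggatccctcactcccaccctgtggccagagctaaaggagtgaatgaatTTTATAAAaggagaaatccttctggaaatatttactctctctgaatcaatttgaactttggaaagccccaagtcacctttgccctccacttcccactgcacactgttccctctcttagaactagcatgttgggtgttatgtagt
Ccl12 (chr11:82101595-82101894, plus strand): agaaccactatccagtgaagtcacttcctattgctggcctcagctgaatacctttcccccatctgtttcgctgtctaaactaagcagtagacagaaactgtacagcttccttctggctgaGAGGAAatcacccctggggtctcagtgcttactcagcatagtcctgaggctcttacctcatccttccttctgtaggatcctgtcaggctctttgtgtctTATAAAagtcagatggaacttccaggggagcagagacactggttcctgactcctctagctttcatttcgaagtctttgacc
Cxcl15 (chr5:90794284-90794583, plus strand): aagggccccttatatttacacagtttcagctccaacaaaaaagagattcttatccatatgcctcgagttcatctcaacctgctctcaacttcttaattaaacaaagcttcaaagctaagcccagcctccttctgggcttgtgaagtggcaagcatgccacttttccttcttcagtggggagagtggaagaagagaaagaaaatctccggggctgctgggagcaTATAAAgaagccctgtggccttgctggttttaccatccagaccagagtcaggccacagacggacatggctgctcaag

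On the gene's strand, TATAAA began 32 bases before the start in Ccl8, 31 before it in Ccl12 and 27 before it in Cxcl15. In Ccl9 TATAAA lay 92 bases before the start, overlapping a copy on the other strand, with a further copy on the other strand. The Ccl6 window held no match to either motif. Of 32851 promoter windows of the same length, 13.6% held TATAAA on either strand and 28.3% held GAGGAA. The PU.1 core was present in Ccl8 and Ccl12, away from TATAAA. The longest run shared by Ccl6 and Ccl9 was gccctccacttcc (13 bases), which occurs in 3 of the 32851 windows. That run was the longest over all pairs of the genes shown, so its rarity is that of a picked maximum. It began at -55 from the start in Ccl6 and at -14 in Ccl9. Ccl8 and Ccl12 shared at most 11 bases, and Ccl9 and Cxcl15 at most 10. Of the members shown that passed, Ccl8 and Cxcl15, of opposite direction, both held TATAAA and Ccl6 did not. These matches are descriptions, not sites.

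None of the 8 homeostatic CC ligands passed in limma, with 3 tested. At an unadjusted p under 0.05, 1 of the 3 was higher, and voom called 0. Ccl27a (chromosome 4, 41769470 to 41774176), an epithelial ligand of Ccr10, was the highest member in tumour 1. It was at 50.6 and 19.0 in the tumours and at 11.4 and 21.9 in the normal prostates, so tumour 2 lay within the normal range (log2 fold change 0.93, SE 0.60, adjusted p = 0.294). That range rested on only 1.8 and 7.3 implied fragments in the normal prostates. Without tumour 2 its log2 fold change was 1.63 and without tumour 1 it was 0.32, and it passed in no alternative that kept both tumours. Its exons overlap those of Il11ra1 on the opposite strand, and it has near-identical copies, so its value is uncertain.

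Ccl27b, such a copy summed here over 3 rows, was at 10.2 and 3.24 in the tumours and at 0.719 and 0.956 in the normal prostates (log2 fold change 1.91, SE 0.59, adjusted p = 0.0823). In the normal prostates only 0.2 and 0.4 fragments were implied, so no level was measured there. Ccl25, a thymic and gut ligand, was at 5.16 and 0.568 in the tumours and at 3.26 and 4.42 in the normal prostates. It rested on 9.3 and 0.4 implied fragments in the tumours and 1.9 and 4.5 in the normal prostates. Its exons overlap those of Elavl1 on the opposite strand. The lymph node ligands Ccl19, Ccl21a, Ccl21b and Ccl21c, which act on Ccr7, were each at 2 FPKM or more in at most 1 library, the highest being Ccl21a at 9.61 in tumour 2. The 3 Ccl21 genes are near-identical paralogs and cannot be told apart with confidence.

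CXC ligands that attract neutrophils, marked by an ELR motif before the cysteines, were scarce. Of 5 members 1 was tested. Cxcl15 (lungkine; chromosome 5, 90794534 to 90803067, protein coding), known from mouse lung epithelium, was listed at 0 in both tumours and lay at 2.42 and 3.27 in the normal prostates. It fell (adjusted p = 0.0319), its normal values coming from 5.0 and 9.6 fragments, and the adjusted p was 0.0551 with no filter, 0.0573 with a filter on mean FPKM and 0.0830 without tumour 1. Without either normal library it did not meet the limit for testing. Cxcl1, Cxcl3 and Cxcl5 stayed at or below 1.19 in every library, and Cxcl2 was listed at 0.

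Interferon-induced CXC ligands, which attract T cells through Cxcr3, were low. Cxcl10 was at 2.30 and 5.41 in the tumours, against 0 as listed and 1.40 in the normal prostates (log2 difference 1.57, SE 0.63, adjusted p = 0.134), and its exons overlap those of Art3 on the opposite strand. Cxcl9 was at 0.153 and 1.08 in the tumours and listed at 0 in both normal prostates. Their receptor Cxcr3 was listed at 0 in all 4 libraries, as was Cxcl11.

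The 3 homeostatic CXC ligands were present in both groups. Cxcl12 (SDF-1; chromosome 6, 117168535 to 117181368) was at 4.34 and 6.55 in the tumours and at 7.68 and 3.06 in the normal prostates. The groups overlapped, and the log2 fold change was 0.10 (SE 0.54, adjusted p = 0.907), with the sign turned under quantile normalization (-0.084). Cxcl13, the B cell attractant, was at 0.860 and 30.1 in the tumours and at 0.970 and 0 as listed in the normal prostates, so tumour 2 alone stood out (adjusted p = 0.249). Cxcl14 (chromosome 13, 56288643 to 56296551), made by epithelium and fibroblasts, was at 2.80 and 21.5 in the tumours and at 8.59 and 9.70 in the normal prostates. The tumours lay on either side of the normal pair. The sign of the log2 fold change (-0.13, SE 0.90, adjusted p = 0.924) turned without tumour 1 (1.22) and with FPKM as deposited (0.70).

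Cxcl17 and Cx3cl1 were the highest ligands of normal 1 and were at or near 0 in tumour 1. Cxcl17 (chromosome 7, 25400053 to 25412886), a mucosal chemokine and the highest member in both normal prostates, was listed at 0 in tumour 1 and was at 22.6 in tumour 2, against 30.02 and 31.6 in the normal prostates (adjusted p = 0.237). Cx3cl1 (fractalkine), a membrane-bound ligand shed by metalloproteases, was at 0.281 and 6.45 in the tumours and at 14.2 and 19.8 in the normal prostates. Both tumours were below both normal prostates, but the log2 fold change of -2.53 (SE 0.91) had an adjusted p of 0.110. Without tumour 1 it was -1.18 (adjusted p = 0.0218) and without tumour 2 it was -3.67 (adjusted p = 1.61e-05), fits in which the single tumour left takes its spread from the normal pair. In the other 10 alternatives it did not pass (adjusted p up to 0.355).

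Cxcl16, the other membrane-bound ligand, was at 2.39 and 12.1 in the tumours and at 5.80 and 9.54 in the normal prostates (difference -0.34 on the log2 scale, SE 0.76, adjusted p = 0.757), and the sign turned with FPKM as deposited (0.47). Its exons overlap those of Zmynd15 on the opposite strand. The summed level of 12 luminal epithelium markers was 357 and 1663 in the tumours and 2769 and 3212 in the normal prostates, so the markers, like Cxcl17 and Cx3cl1, were lowest in tumour 1. Summed basal epithelium markers were also lowest there, at 12.3 and 72.8 in the tumours and 89.2 and 88.4 in the normal prostates. So were smooth muscle markers, at 23.5 and 124 in the tumours and 646 and 600 in the normal prostates. The macrophage sum, given below, was not. The part of any of these markers in the chemokine values was not tested. In bulk tissue, fewer cells of a type and less RNA per cell cannot be told apart.

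Signalling receptors were low in all libraries. Of 17 receptors, 4 were tested, of which Ccr10 rose and 3 did not pass, beside 9.85% of all genes tested that rose. Ccr10 met the limit for testing in tumours alone. Ccr10 (chromosome 11, 101172998 to 101175443, protein coding), the receptor of Ccl27 and Ccl28, was at 1.90 and 1.60 in the tumours and listed at 0 in both normal prostates. It passed the test (adjusted p = 0.0439) on 7.0 and 5.0 implied fragments, with a difference of 1.46 (SE 0.32) between the group means of log2(scaled FPKM + 1), which is no fold. The call was lost in 6 of 10 alternatives, with an adjusted p of 0.210 under quantile normalization, 0.0593 with no filter, 0.0986 with a filter on mean FPKM, 0.0758 by voom, 0.301 without normal 1 and 0.321 without normal 2.

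Ccr1, the receptor of Ccl6 and Ccl9, was at 1.26 and 2.59 in the tumours and listed at 0 in both normal prostates, on 8.0 and 14 implied fragments (adjusted p = 0.0561). Cxcr4, the receptor of Cxcl12, was at 7.18 and 3.62 in the tumours and at 1.73 and 0.391 in the normal prostates. Both tumours were above both normal prostates, and tumour 1 was the highest (log2 fold change 1.66, SE 0.56, adjusted p = 0.0971). In the normal prostates 3.0 and 1.0 fragments were implied. With FPKM as deposited the log2 fold change of Cxcr4 was 2.25 and passed (adjusted p = 0.0397). It passed in no other alternative that kept both tumours, with 1.22 under quantile normalization (adjusted p = 0.210) and 1.18 without normal 2. The log2 fold change was 2.01 without tumour 2 and 1.26 without tumour 1. Cxcr4 was the highest signalling receptor in both tumours.

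Cxcr2, the neutrophil receptor, was the member whose 4 values lay closest together among the receptors tested, at 2.58 and 1.97 in the tumours and 1.61 and 2.09 in the normal prostates. The groups overlapped (log2 difference 0.20, SE 0.39, adjusted p = 0.731), and quantile normalization turned the sign (-0.24).

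Ccr2, the receptor of Ccl2 on monocytes, was listed at 0 in tumour 1 and normal 1 and was at 0.861 in tumour 2 and 0.558 in normal 2. Cx3cr1, the fractalkine receptor of monocytes, was listed at 0 in tumour 1 and was at 0.958 in tumour 2, against 0.0164 and 0.710 in the normal prostates. Ccr7 was at 0.282 in tumour 2, on 0.5 implied fragments, and listed at 0 elsewhere. At these depths a difference in Ccr2, Cx3cr1 or Ccr7 was not detectable.

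**Figure D4:**
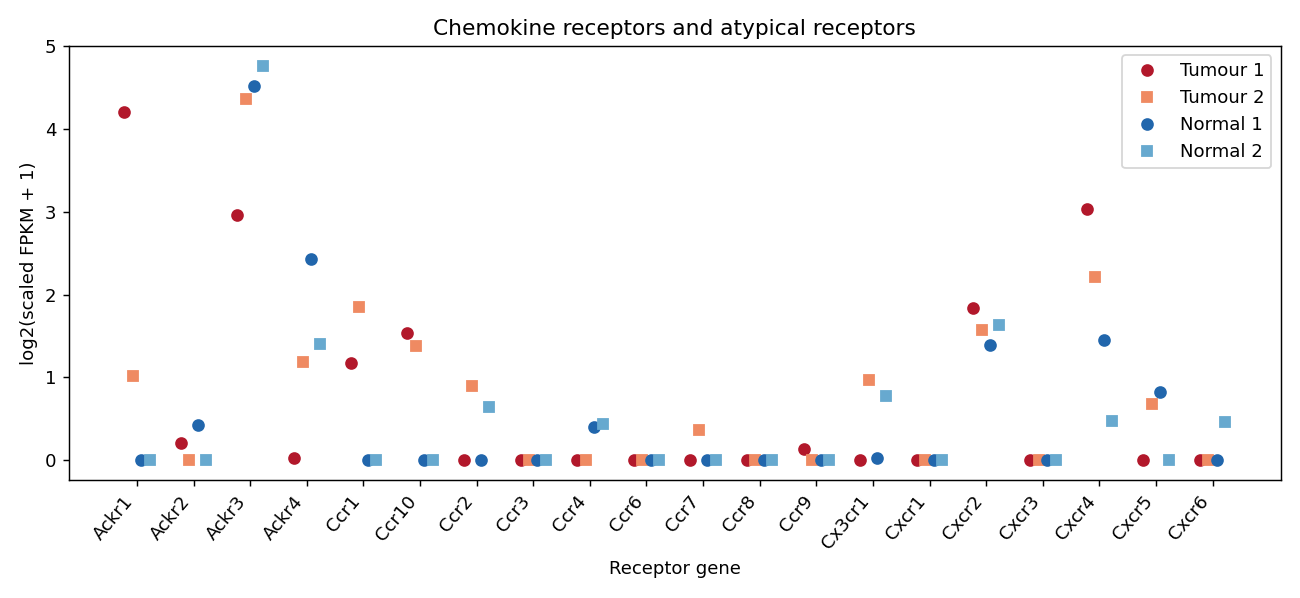
Level of the 4 atypical receptors and the signalling receptors reported, on a log2(scaled FPKM + 1) axis, with 1 point per library. Ackr3 is the highest receptor in tumour 2 and both normal prostates, Ackr1 (17.5) in tumour 1, and Cxcr4 is above both normal prostates in both tumours.

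None of the 4 atypical receptors passed in limma, with 3 tested, 0 of them at an unadjusted p under 0.05 and 0 by voom. Ackr3 (chromosome 1, 90203980 to 90215722), which scavenges Cxcl12, was at 6.76 and 19.5 in the tumours and at 21.8 and 26.2 in the normal prostates. Both tumours were below both normal prostates, but the log2 fold change of -0.98 (SE 0.55) had an adjusted p of 0.239. It was -1.65 without tumour 2 and -0.21 without tumour 1, and it passed in no alternative that kept both tumours. With FPKM as deposited it was -0.096 (adjusted p = 0.913), and the groups then overlapped, at 9.08 and 29.3 in the tumours and 17.3 and 18.0 in the normal prostates. Ackr1, the Duffy receptor of venular endothelium and red blood cells, was at 17.5 and 1.02 in the tumours and listed at 0 in both normal prostates (adjusted p = 0.144).

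The Ackr1 value rested on 39.5 implied fragments in tumour 1 and 2.0 in tumour 2, and its exons overlap those of Cadm3 on the same strand. The summed endothelial markers ran the other way, at 6.37 and 46.7 in the tumours and 12.7 and 7.26 in the normal prostates, with Pecam1 at 0.406 in tumour 1 and 12.4 in tumour 2. Ackr4, which scavenges Ccl19 and Ccl21, was at 0.0181 and 1.27 in the tumours and at 4.39 and 1.65 in the normal prostates (log2 fold change -1.31, SE 0.61, adjusted p = 0.176). Exons of Ackr4 overlap those of Acad11 on the opposite strand. Ackr2 was below 0.5 in every library.

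Ligands and receptors were set side by side for 29 known pairs. Both partners reached 1 FPKM for 3 pairs in tumour 1 and 4 in tumour 2, against 2 in normal 1 and 1 in normal 2. The pair of Cxcl12 and Ackr3 did so in all 4 libraries. Cxcl12 with Cxcr4 did so in both tumours and in normal 1, and Ccl27a with Ccr10 in both tumours. In tumour 2 the pair of Cxcl3 with Cxcr2 was added, with Cxcl3 on 2.0 implied fragments. These counts depend on the pairs chosen: with 7 more, picked after their values were seen (Ccl5, Ccl6, Ccl7 and Ccl9 with Ccr1, Ccl27b with Ccr10, Ccl21b and Ccl21c with Ccr7), they were 6 in tumour 1 and 9 in tumour 2, against 2 in normal 1 and 1 in normal 2. Ccl6 and Ccl9 with Ccr1 reached 1 FPKM in both tumours and in neither normal prostate. Ccl8, among the most abundant ligands of the tumours, had its mouse receptor Ccr8 listed at 0 in all 4 libraries.

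Of 65 tested pathway genes outside the family, 5 rose (7.69%), near the 9.85% of all genes tested, and 0 fell in limma, with 4 lower at an unadjusted p under 0.05 and 1 by voom. The count higher was 20 with FPKM as deposited. Of the 5, Pf4, Gng2 and Rgs16 met the limit for testing in tumours alone, so they had to differ in FPKM as deposited. Of 9 tested chemokine-related genes not among the 60, 2 rose. Pf4 (platelet factor 4, a CXC chemokine of platelets and macrophages) was at 12.8 and 37.1 in the tumours and listed at 0 in both normal prostates (adjusted p = 0.0220). Mif, a cytokine that also acts on Cxcr2 and Cxcr4, was at 454 and 427 in the tumours and at 135 and 100.2 in the normal prostates, a log2 difference of 1.91 with an SE of 0.26 (adjusted p = 0.0222).

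Of 27 tested receptor signalling genes, Gng2, Rgs16 and Prex1 rose and 24 did not pass, beside 9.85% of all genes tested that rose. Gng2, a G protein gamma subunit, was at 41.4 and 9.51 in the tumours and at 0.541 and 0.550 in the normal prostates (log2 fold change 3.77, SE 0.75, adjusted p = 0.0371). Rgs16, which ends Gi signalling, was at 9.78 and 8.43 in the tumours and at 0.437 and 0.295 in the normal prostates (a 2.89 log2 difference, SE 0.39, adjusted p = 0.0223). Prex1, a Rac exchange factor, was at 15.1 and 7.80 in the tumours and at 1.32 and 2.09 in the normal prostates (adjusted p = 0.0472).

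Of 13 tested upstream cytokine and NF-κB genes limma called 0, with 1 lower at an unadjusted p under 0.05 and 0 called by voom. Of 16 tested genes of ligand processing and display limma also called 0, with 3 higher at an unadjusted p under 0.05 and 0 called by voom. The median log2 fold change was 0.28 for signalling, -0.52 for upstream genes and 0.30 for processing, beside 0.07 for all genes tested. The cytokines Il6 and Ifng were listed at 0 in all 4 libraries, and Tnf (0.898 in normal 2) and Il1b (0.734 in tumour 1) were each above 0 in 1.

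Of 11 tested macrophage markers 4 rose and 7 did not pass, beside 9.85% of all genes that rose, and their summed level over 13 genes was 199 and 626 in the tumours and 26.2 and 26.6 in the normal prostates. Lyz2, the macrophage and neutrophil lysozyme, was at 94.2 and 206 in the tumours, against 0 as listed and 1.84 in the normal prostates (log2 fold change 6.38, SE 0.68, adjusted p = 0.0195). Cd68 was at 13.1 and 31.2 in the tumours and listed at 0 in both normal prostates, and the complement gene C1qb was at 31.7 and 131 in the tumours and at 4.33 and 4.03 in the normal prostates. Among the markers that rose, Cd68 met the limit for testing in tumours alone. The count that rose is therefore no support for a shift of the list.

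Tumour 2 was the higher tumour for the macrophage sum, as it was for Ccl6, Ccl8 and Ccl9. Adgre1 (F4/80) and Csf1r, defining macrophage genes, overlapped between the groups, with Adgre1 at 1.36 and 4.47 in the tumours and 2.75 and 1.45 in the normal prostates. The part of macrophage content in the chemokine values was not tested.

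In the tumours, the summed markers of each other leukocyte list were lower than the macrophage sum. Of 6 tested pan-leukocyte markers 3 rose, beside 9.85% of all genes tested that rose. Each of the 3 met the limit in tumours alone, so the count is no support for a shift. The 8 genes summed to 21.3 and 61.7 in the tumours and 35.8 and 38.9 in the normal prostates, where Lcp1, an actin bundler, made up most of the normal sums. Lcp1 was at 0.932 and 12.3 in the tumours and at 33.9 and 35.3 in the normal prostates (adjusted p = 0.0971). Without it the sums were 20.4 and 49.4 in the tumours and 1.95 and 3.59 in the normal prostates. Limma called 0 of 3 dendritic cell markers (0 at an unadjusted p under 0.05 and 0 by voom), with sums of 13.2 and 6.08 in the tumours and 7.84 and 5.01 in the normal prostates. The pan-leukocyte gene Ptprc (CD45) was at 0.249 and 1.56 in the tumours and at 0.749 and 0 as listed in the normal prostates. Summed T and NK cell markers were at 3.33 and 7.47 in the tumours and 3.24 and 5.74 in the normal prostates. Of 2 tested, Lck rose and 1 did not pass, beside 9.85% of all genes tested that rose. Cd3e was listed at 0 in both tumours and at 1.51 in normal 1. The B cell gene Cd79a was listed at 0 in all 4 libraries, where summed B and plasma cell markers were at 1.35 and 7.24 in the tumours and 1.32 and 0.167 in the normal prostates.

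Neutrophil markers summed to 5.44 and 25.9 in the tumours and 0.826 and 0.732 in the normal prostates, and S100a8 was at 4.33 and 10.2 in the tumours, on 2.0 and 4.0 implied fragments, and listed at 0 in both normal prostates. The fibroblast sum was 104 and 997 in the tumours and 146 and 123 in the normal prostates, so tumour 2 stood apart there too. The mast cell sum of 38.9 and 25.5 in the tumours was mostly Kit (38.9 and 20.2), a receptor that is not restricted to mast cells.

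**Figure D5:**
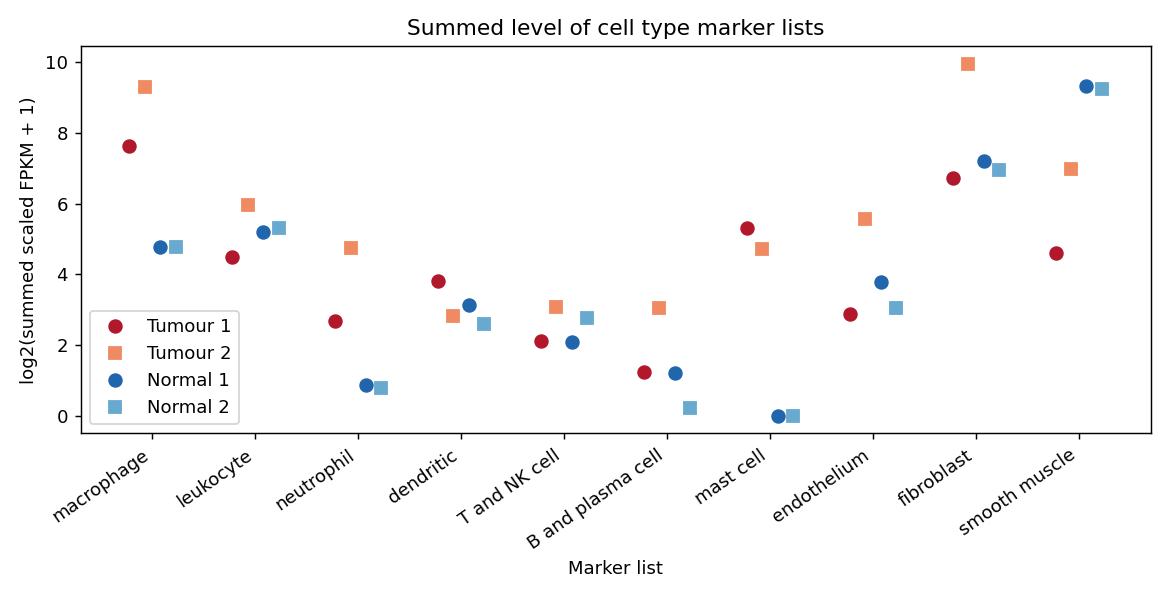
Summed scaled FPKM of 10 marker lists on a log2(sum + 1) axis, with 1 point per library. In macrophage, neutrophil, mast cell and B and plasma cell sums the tumour points lie above all normal points. The B and plasma cell gap is narrow, at 1.35 in tumour 1 and 1.32 in normal 1. Fibroblast and endothelial sums are highest in tumour 2.

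The tumours differed from each other more than the normal prostates did across the family. The median absolute difference between the 2 libraries of a group on the log2(scaled FPKM + 1) scale was 1.40 for the tumour pair and 0.45 for the normal pair over the 25 members tested. Over all genes tested it was 0.64 for the tumour pair and 0.29 for the normal pair. Of the 60 members, 32 were higher in tumour 2 than in tumour 1 and 11 were lower. The 11 included Ccl27a, Ccl27b, Ccl25, Ackr1, Cxcr4, Cxcr2 and Ccr10. For the 32 and the 11 no share over all genes was taken. Over all gene names, 13863 were at 1 FPKM or more as deposited in tumour 2 and 12236 in tumour 1.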

How the data were processed

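RNA-seq of 2 TRAMP tumours and 2 normal prostates was analysed from 1 deposited gene table per library, in which the authors give FPKM with interval bounds. Per the submitters' processing notes, the tools were TopHat2 2.0.8, Cufflinks and Cuffdiff (both 2.1.1) and Trim Galore, with build mm10 (GRCm38). Not given in the sources used here are the annotation, the settings, strand use and any scaling between libraries. TruSeq V2 libraries were read on an Illumina NextSeq, per the labels' protocols.

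From the 24883 rows of each table, 27 with date-like names were left out and the rest were summed by name (24319 names). Libraries were divided by median-of-ratios factors over genes above 0 in all 4, namely 1.34 and 1.50 for the tumours and 0.793 and 0.689 for the normal prostates, a log2 shift of 0.94 between the groups. Genes with FPKM of at least 1 in at least 2 libraries (13162) were tested on log2(scaled FPKM + 1) by limma 3.58.1 with an intensity trend, two-sided, in R 4.3.3, and the script was checked on simulated data. Low genes change by more than this scale shows. With 2 against 2, an exact permutation test cannot go below 0.333 and was not used. Fragments behind a value were implied by reading the deposited interval as Poisson error of 2 SD either way, which covers counting error only. Among rows with a single transcription start identifier and between 0.9 and 20 such fragments, 71.0 to 72.5% were whole within 0.1. A value listed at 0 may be a failed estimate. Positions are those of the files, counted from 1, and 58 of 60 members overlap the GENCODE M21 gene of that name. RefSeq promoters matched 44 members.

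Members, lists and tests were chosen with earlier results of these data known. Members named with each library's value were those past the threshold, those with a mean of at least 5 in either group, and Cxcl12, Cxcr4, Ackr3, Cx3cl1, Cx3cr1, Ccl2, Ccl5, Ccr2, Ccr7, Cxcr2 and Cxcr3. Other members were given as ranges or single values. The values of 1 member are not reported here, though counts and sums over the family include it. Outside the family the rule took at most the 3 largest changes past the threshold in a list, and Ptprc, Cd68, Cd3e, Cd79a, S100a8 and Pecam1 of the markers. Other markers named (Tgm4, Chga, Krt8, Lyz2, C1qb, Adgre1, Csf1r, Lcp1, Kit and Lck) were added after their values were seen. So were the cytokines Il6, Ifng, Tnf and Il1b, and members Ccl3, Ccl4, Ccl25, Cxcl9, Cxcl10, Ccr1, Ackr2 and Ackr4. Alternatives changed the scaling, the pseudocount (0.1), the filter, the variance model (voom on implied fragments, no trend) and left out each library. A fit without 1 tumour takes its spread from the normal pair alone, and its p-values leave out the spread between tumours.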

Additional observations from a re-analysis of the deposited data

How the results depend on the processing

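No paired analysis was possible because the labels number no replicates: the numbers used here only name the libraries, and a shared number pairs nothing. Beside 3 members higher and 1 lower, FPKM as deposited gave 7 higher, quantile normalization 1 higher, voom 0 higher, no filter 0 higher and 0 lower, and a filter on mean FPKM 0 lower. With 1 library left out the counts ranged from 0 to 4 higher and from 0 to 7 lower. Both were 0 without either normal library, where limma called 0 of all genes (at most 12822 tested), and 7 were lower without tumour 2. Pathway genes higher numbered 5, against 20 with FPKM as deposited, 14 under the FPKM total scaling that omits the largest genes, 3 under quantile normalization, 3 by voom, 1 without the filter and 0 to 10 with 1 library left out. Pathway genes lower numbered 0, against 1 by voom and 0 to 16 with 1 library left out. Leukocyte markers higher numbered 10 of 24 tested, where 9.85% of all genes tested rose. They numbered 6 under quantile normalization (6.72% of all genes), 5 by voom (7.78%) and 3 of 55 without the filter (1.44%). Among the 10, Cd68 and the 3 pan-leukocyte markers that rose met the limit for testing in tumours alone. The count is therefore no support for a shift.

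Signs turned in 13 of 224 alternatives of the 20 named members tested, all for members that did not pass. Ccl11 turned without tumour 2 (-0.92), Ccl5 by voom (-0.097) and without normal 2 (-1.68), and Cxcr2 under quantile normalization (-0.24). Cxcl12 turned under quantile normalization (-0.084), without tumour 2 (-0.14) and without normal 2 (-0.49). Cxcl14 and Cxcl16 turned with FPKM as deposited (0.70 and 0.47), scaled to the FPKM sum (0.45 and 0.22) and without tumour 1 (1.22 and 0.69). The cause was not tested. With 1 library left out these 5 members ranged from -0.92 to 2.35 (Ccl11), -1.68 to 2.30 (Ccl5), -0.49 to 0.61 (Cxcl12), -1.37 to 1.22 (Cxcl14) and -1.28 to 0.69 (Cxcl16). The call of Ccl6 was kept in 6 of 12 alternatives (adjusted p up to 0.183), that of Ccl8 in 6 of 10 (up to 0.147), that of Ccr10 in 4 of 10 (up to 0.321) and that of Cxcl15 in 7 of 10 (up to 0.0830). Ccl8 and Ccr10 did not meet the limit for testing without tumour 1 or without tumour 2. Those fits are therefore not among their 10 alternatives. Counts of members at 1 FPKM in both libraries of a group stayed within 1.5 times with FPKM as deposited. The same held with the largest row in place of the sum. With 7 pairs added after seeing the data, pairs at 1 FPKM numbered 6 in tumour 1 and 9 in tumour 2. Without Lcp1, also left out after seeing the data, summed pan-leukocyte markers were 1.95 in normal 1 and 3.59 in normal 2. Depth limits ligands and receptors alike: Ccr10 rests on 7.0 and 5.0 implied fragments in the tumours and Ccl2 on 2.0 and 5.0.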
